A study of Anopheles gambiae with 15 samples.

Results

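The anterior midgut and the hindgut of the mosquito larva were compared on 6 arrays, the 3 anterior midgut and the 3 hindgut arrays of a series of 15, chosen by their titles. The animals were Anopheles gambiae larvae of the 4th instar, from the G3 strain of this malaria vector, reared at 28 °C on baker's yeast and ground fish flakes. For each array, guts from 1000 larvae were dissected in 70% ethanol, cut into sections and pooled. The hindgut pool also contained the Malpighian tubules, so that the hindgut arrays measure both organs mixed. The other 9 arrays, 3 each of gastric caeca, posterior midgut and whole larvae, came from untreated larvae of the same strain and stage and were used here as outside reference. The caeca and posterior midgut arrays also pooled sections of 1000 guts dissected in 70% ethanol. Each whole-larva array pooled 200 individuals, and no ethanol is listed for these. Differences between a gut section and whole larvae therefore also hold a difference in handling and pool size.

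The anterior midgut of a mosquito larva is the front part of the tube that receives food from the foregut, and it is known for the strongly alkaline fluid that its epithelium maintains. Digestion and uptake of nutrients go on there and further along the midgut. The Malpighian tubules secrete the primary urine, and the hindgut modifies that fluid and the undigested residue by reabsorbing ions and water before release. In a pooled section, fewer cells of a type and less RNA per cell cannot be told apart.

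Values are the log2 levels per probe set that the authors deposited, made with RMA. A probe set is a group of short probes combined into 1 level, and counts of probe sets are not counts of transcripts or genes. The 16884 probe sets with an ID that starts with Ag, of 22761 on the array, were tested. None of the files or tables at hand pairs these IDs with genes, so that no gene, pathway or marker list can be named and the dissected tissues could not be checked against marker genes. The 2 probe sets with the largest rise and the 2 with the largest fall stand for the rest under their IDs. A probe set was called where limma's adjusted p, after Benjamini-Hochberg adjustment over all 16884, was under 0.05 and the difference was at least 2-fold.

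Against hindgut, 534 probe sets were called higher in anterior midgut (3.16% of those tested) and 2017 were called lower (11.9%). Higher probe sets thus made up 20.9% of the calls. They made up 45.9%, with 1088 higher and 1280 lower, when the deposited values were quantile normalized again over the 15 arrays. Both splits are given because the arrays differ in how wide their values spread, as described next. Of the 534 higher probe sets, 398 were also called when only the 6 arrays were fitted, and of the 2017 lower ones 1723 were. At 28% of all tested probe sets, the 3 anterior midgut arrays all lay above the 3 hindgut arrays, and at 21.7% they all lay below.

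**Figure D1:**
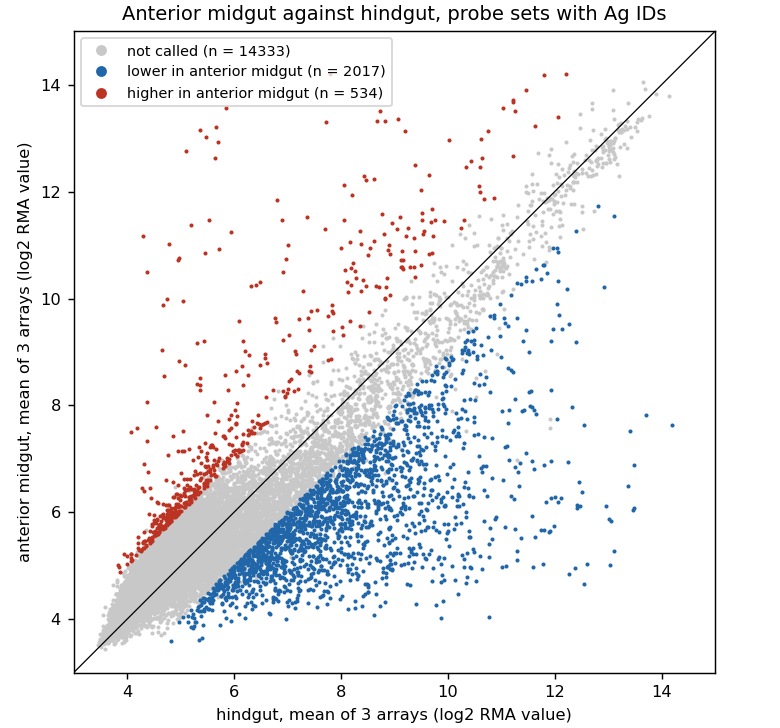
Mean level of each of the 16884 probe sets in anterior midgut (vertical) against hindgut (horizontal), both as log2 RMA values over 3 arrays; the line marks equal levels. The 534 probe sets called higher in anterior midgut are red and the 2017 called lower are blue, and the lower ones are most dense at hindgut levels between 6 and 10.

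The anterior midgut arrays were less alike than the hindgut arrays. Anterior midgut arrays correlated with each other at r = 0.919 for 1 with 2, 0.963 for 1 with 3 and 0.871 for 2 with 3, and hindgut arrays at 0.981 to 0.987, in each case across probe sets. The root mean square SD within the group was 0.470 log2 units in anterior midgut and 0.237 in hindgut. Over the tested probe sets, values on anterior midgut arrays 1, 2 and 3 had SDs of 1.59, 1.40 and 1.70 log2 units, below the 1.81 to 1.85 of the hindgut arrays. Array 2 had the narrowest spread of all 15. A level above 8 was reached by 1240, 823 and 1511 probe sets on anterior midgut arrays 1, 2 and 3, and by 1933 to 1999 on the hindgut arrays (two-sided exact permutation p = 0.1, n = 3 in each group, which is the smallest p that 3 against 3 arrays can give). On a linear scale the 100 brightest probe sets held 28.8% to 33.7% of the summed signal on the anterior midgut arrays and at most 25.1% on the hindgut arrays (exact permutation p = 0.1, n = 3 per group). Signal was thus spread over fewer probe sets in all 3 anterior midgut arrays than in any hindgut array, and most so in array 2.

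The median difference from hindgut was most negative at intermediate levels and differed in size between the 3 anterior midgut arrays. Probe sets were grouped by their mean over the 9 arrays of the other groups, which took no part in the comparison. Among the 636 with an outside level of 8 to 9, the median difference from the hindgut mean was -0.72 log2 units on anterior midgut array 1, -1.72 on array 2 and -0.14 on array 3. Among the 164 with an outside level of 12 or more it was -0.07, -0.26 and 0.12. Of the 2017 lower probe sets, 1286 had their lowest anterior midgut value on array 2, against 392 on array 1 and 339 on array 3. When array 2 was left out, 431 probe sets were called higher and 1635 lower, and when array 3 was left out, 926 and 2544, so that arrays 2 and 3 moved the counts in opposite directions. The part of array 2's narrow range in single calls was not tested.

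**Figure D2:**
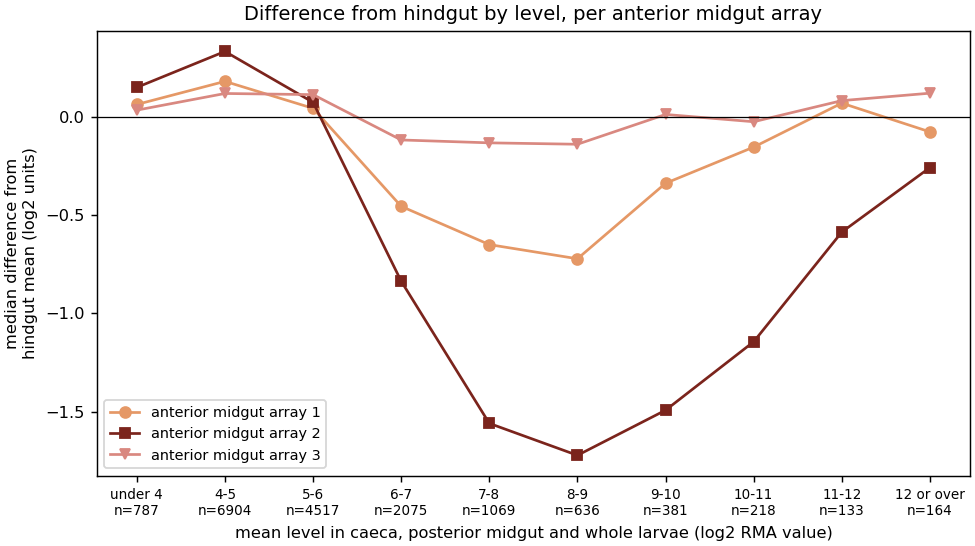
Median difference of each anterior midgut array from the hindgut mean, in log2 units, for probe sets grouped by their mean level in caeca, posterior midgut and whole larvae; the number of probe sets stands under each group. Array 2 falls to -1.72 at levels of 8 to 9, array 1 to -0.72, and array 3 stays between -0.14 and 0.12.

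A stricter count asked for a 2-fold difference on each array. On all 3 anterior midgut arrays, 211 of the 534 higher probe sets lay at least 2-fold above the hindgut mean. Of the lower ones, 1300 of 2017 lay at least 2-fold below it on all 3 arrays. On array 3 alone, 309 higher and 1433 lower calls reached 2-fold. Called the same way in each of 12 fits, namely the reported fit, the 6-array fit, group weights, 2 renormalizations, the replicate block and the leaving out of each of the 6 arrays, were 249 higher and 1142 lower probe sets. Their median differences were 4.07-fold and 4.97-fold.

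The median difference was 2.46-fold among all higher probe sets and 3.19-fold among the lower ones. Differences of 4-fold or more were measured for 134 higher and 753 lower ones, of 10-fold or more for 53 and 271, and of 64-fold or more for 12 and 31. All 53 higher and 267 of the 271 lower probe sets of 10-fold or more were called the same way, at 2-fold or more, in each of the 12 fits. After quantile normalization 69 higher and 199 lower ones reached 10-fold. Around the 2-fold threshold, 280 higher probe sets lay between 2- and 2.5-fold and 1482 with an adjusted p under 0.05 lay between 1.5- and 2-fold. The same bands held 552 and 812 of the lower ones.

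Ag.2L.2607.0_CDS_at had the largest fitted rise. Its level was 13.13, 12.96 and 13.37 on anterior midgut arrays 1 to 3 and 6.26, 4.87 and 4.95 on hindgut arrays 1 to 3. No hindgut array came near any anterior midgut array, and hindgut array 1 stood above the other two. The difference was 7.79 ± 0.43 log2 units (SE), or 222-fold by the fit (limma's adjusted p = 6e-08). Only 1 of the 3 hindgut values lay above the background described below, and with the other two set at the background the difference was at least 182-fold. Outside the pair, the probe set stood at 11.20 ± 0.41 (SD, n = 3) in caeca, 10.96 ± 0.72 in posterior midgut and 10.16 ± 0.62 in whole larvae, all between the compared sections.

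Ag.2L.2076.0_CDS_at followed with 13.48, 13.63 and 13.59 in anterior midgut and 6.23, 5.77 and 5.55 in hindgut. The anterior midgut arrays agreed closely, at 13.57 ± 0.08 (SD, n = 3), and the hindgut stood at 5.85 ± 0.34 with all 3 arrays above background. The difference was 7.72 ± 0.31 log2 units (SE), or 210-fold (limma's adjusted p = 9.2e-09), so that the order of these leading probe sets is not settled. Caeca were at 12.46 ± 0.52, posterior midgut at 11.78 ± 0.45 and whole larvae at 11.19 ± 0.48. Both leading anterior midgut probe sets were thus high in the other midgut sections too, and low only in hindgut among the 5 groups.

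Ag.2R.3622.1_a_at had the largest fitted fall. It stood at 5.37, 4.72 and 4.96 in anterior midgut and at 13.09, 13.07 and 12.97 in hindgut. The groups were far apart, and the hindgut arrays differed among themselves by less than the anterior midgut arrays did. The difference was -8.02 ± 0.72 log2 units (SE, limma's adjusted p = 3.3e-06). Since no anterior midgut array was above background, the hindgut level was at least 137-fold higher. Caeca were as low, at 5.06 ± 0.45 (SD, n = 3), whereas posterior midgut reached 9.75 ± 0.94. Whole-larva arrays 1 to 3 read 6.84, 10.60 and 9.40, a wide spread.

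Ag.3L.1815.0_CDS_at was next, at 4.84, 4.49 and 4.65 in anterior midgut against 12.46, 12.68 and 12.53 in hindgut. The difference was -7.90 ± 0.48 log2 units (SE, limma's adjusted p = 1.2e-07), and the hindgut level was at least 97.7-fold higher, as no anterior midgut array was above background. It was 4.73 ± 0.04 (SD, n = 3) in caeca, 8.34 ± 0.89 in posterior midgut and 9.40 ± 1.16 in whole larvae. Both leading hindgut probe sets shared this order, with caeca and anterior midgut at the bottom, posterior midgut between and hindgut at the top. On posterior midgut arrays 1 to 3 they read 9.33, 10.82 and 9.09 for the first and 7.48, 9.26 and 8.27 for the second, highest on array 2 in both.

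**Figure D3:**
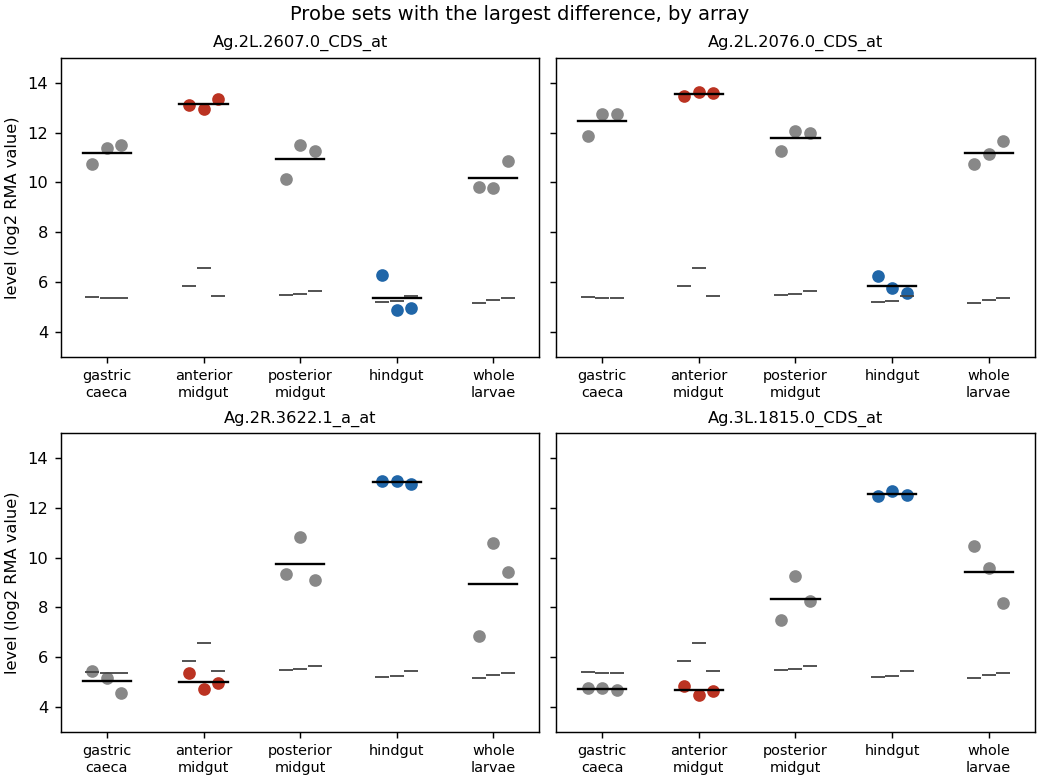
Log2 RMA level of the 4 probe sets on all 15 arrays by group; each point is 1 array, the long line is the mean of 3 arrays and the short dashes are each array's background. The upper probe sets are high everywhere but in hindgut, and the lower ones are at or near background in caeca and anterior midgut, between 7.48 and 10.82 in posterior midgut and highest in hindgut.

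Levels of the 10-fold sets showed how often such patterns occurred. The median level of the 53 higher probe sets was 11.60, 10.95 and 11.32 on anterior midgut arrays 1 to 3 and 5.67, 5.86 and 5.77 on the hindgut arrays. The same median was 8.98 to 9.74 on the caeca arrays, 9.90 to 10.44 on the posterior midgut arrays and 7.90 to 8.62 on the whole-larva arrays. Of these 53, 20 had a posterior midgut mean within 2-fold of the anterior midgut mean, 13 had a caeca mean within 2-fold of it, and 5 had both. In 1 of the 53, caeca and posterior midgut both lay within 2-fold of hindgut. Probe sets with both caeca and posterior midgut near the hindgut level were thus few among those that most separated anterior midgut from hindgut.

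The 271 lower probe sets of 10-fold or more had median levels of 5.51, 5.31 and 5.69 on anterior midgut arrays 1 to 3 and 9.97, 9.95 and 10.07 on the hindgut arrays. The median was 6.44 to 6.57 on the caeca arrays, 6.29 to 7.10 on the posterior midgut arrays and 7.29 to 7.88 on the whole-larva arrays. Posterior midgut lay within 2-fold of anterior midgut for 145 of the 271, caeca for 145, and both for 100. Posterior midgut lay within 2-fold of hindgut for 32. In 22 the whole-larva mean exceeded the hindgut mean, so that these are not hindgut-enriched over whole larvae by level. On these arrays the posterior midgut and caeca were nearer to anterior midgut than to hindgut for 208 and 210 of the 271. Whole larvae were so too, for 166. Over all tested probe sets, posterior midgut was nearer to anterior midgut in 58.9%, caeca in 50.4% and whole larvae in 46.7%. Most of those probe sets were not called, and the 271 were chosen for their wide gap, so that these shares are no matched baseline.

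Comparisons that use neither anterior midgut nor hindgut arrays gave levels that the choice of the called probe sets did not touch, although the fit takes 1 spread per probe set from all 15 arrays. Posterior midgut minus whole larvae had a median of 0.35 log2 units over the 534 higher probe sets and -0.11 over the 2017 lower ones, against 0.04 over all 16884. The median over the higher probe sets was 0.62 without anterior midgut array 2 and 0.21 without array 3. Of the higher probe sets, 127 (23.8%) were called higher in posterior midgut than in whole larvae and 16 lower, beside 3.72% and 5.17% of all. Of the lower ones, 215 (10.7%) were called higher and 344 (17.1%) lower. Probe sets that were high in anterior midgut against hindgut were thus more often high in posterior midgut against whole larvae, by their share, than tested probe sets at large. Calls in either direction were more frequent than over all probe sets among the lower ones. Of all tested probe sets, however, 48.7% were below the background described below on all 6 arrays of the pair. The shares over all are therefore no matched baseline for either called group.

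Caeca minus whole larvae followed the same order over the higher probe sets, with a median of 0.23 log2 units against 0.01 over all, or 0.60 without anterior midgut array 2 and 0.09 without array 3. There, 111 of the 534 (20.8%) were called higher in caeca and 9 (1.69%) lower, beside 4.24% and 3.90% of all. The median over the lower probe sets was -0.04, or -0.09 without anterior midgut array 2, -0.02 without array 1 and -0.0007 without array 3, so that it was close to 0, and 245 (12.1%) were called higher and 299 (14.8%) lower. That median changed sign, to 0.01, when arrays were centred on their median. Posterior midgut minus caeca, along the length of the midgut, had medians of 0.12 over the higher and -0.15 over the lower probe sets, against 0.02 over all. Both signs turned among calls of 10-fold or more, with medians of -0.35 over the 53 higher and 0.07 over the 271 lower ones. Called higher in posterior midgut than in caeca were 23 probe sets of the higher group and 67 of the lower group (4.31% and 3.32%, beside 0.77% of all). Called lower were 26 and 100 (4.87% and 4.96%, beside 1.68%). The called probe sets therefore moved both ways between these sections, with no direction that stood out by count among the higher ones. For caeca, too, the shares over all probe sets are no matched baseline.

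**Figure D4:**
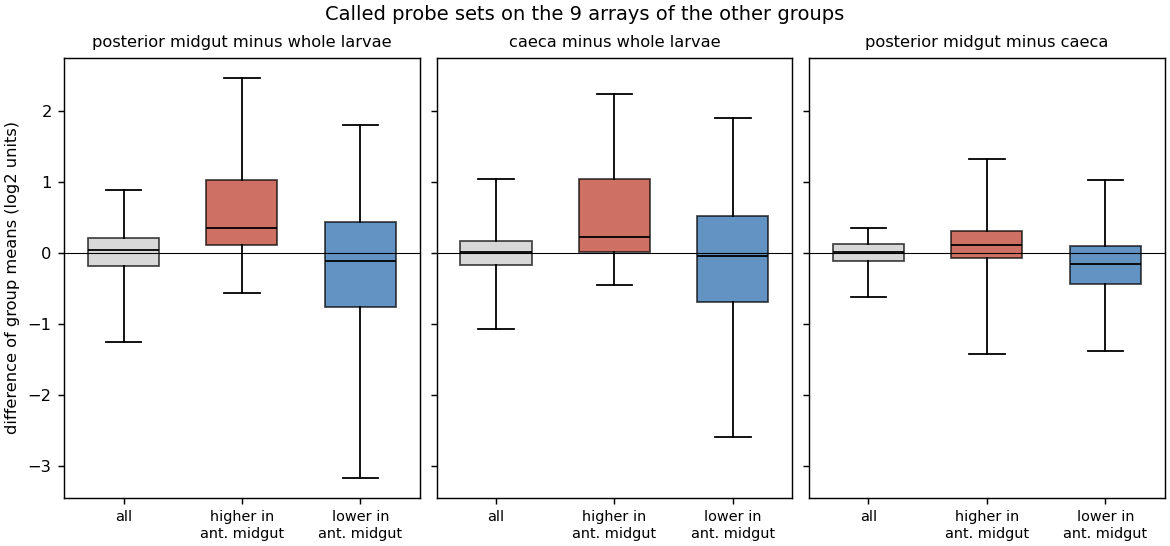
Differences of group means in log2 units on the 9 arrays outside the comparison, for all 16884 tested probe sets, the 534 higher and the 2017 lower in anterior midgut; boxes are quartiles with the median, and whiskers run from the 5th to the 95th percentile. The higher probe sets sit above the others in posterior midgut and caeca against whole larvae (medians of 0.35 and 0.23), and the medians of the called probe sets between posterior midgut and caeca are 0.12 and -0.15.

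Detection was read against the 290 probe sets whose ID starts with a number, whose targets the sources used here do not give. A value counted as above background when it exceeded their 95th percentile on the same array, which was 5.83, 6.56 and 5.44 on anterior midgut arrays 1 to 3 and 5.21 to 5.44 on the hindgut arrays. By this count 1992 probe sets were above background on all 3 anterior midgut arrays, 6368 on all 3 hindgut arrays and 1878 on all 6. Another 31 were above on all 3 anterior midgut arrays and on no hindgut array, of which 29 were called higher. In the other direction 978 were above on all 3 hindgut arrays and on no anterior midgut array, of which 560 were called lower. The background itself was highest on anterior midgut array 2, and without that array the anterior-midgut-only count was 138. Without anterior midgut array 3 the counts were 62 in anterior midgut only and 2291 in hindgut only. Against the lower background of the IDs that start with Pf, at 4.00 to 4.18, the counts were 92 and 48, so that the order of the 2 sections turned.

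Among the calls, 321 of the 534 higher probe sets were above the number-ID background on all 3 anterior midgut arrays and 45 on none. Of the 2017 lower ones, 1955 were above it on all 3 hindgut arrays and 622 on no anterior midgut array. The anterior midgut level of these 622 is known only as a bound. The background was higher on anterior midgut arrays 1 and 2 than on any hindgut array, so that these shares have unequal bars. Against 1 common level of 6.56, 252 of the higher calls (47.2%) exceeded it on all 3 anterior midgut arrays and 1546 of the lower ones (76.6%) on all 3 hindgut arrays.

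The brightest probe sets were largely shared. Of the 100 probe sets brightest in anterior midgut, 64 were among the 100 brightest in hindgut. Among the 100 of anterior midgut, 25 were called higher there, 13 of them by 10-fold or more. Among the 100 of hindgut, 15 were called higher in hindgut, 12 of them by 10-fold or more. These lists were chosen on the same arrays, so their directions were fixed by the choice. The lowest hindgut level in the first list was 5.11 and the lowest anterior midgut level in the second was 5.02, both under the number-ID background of the respective arrays.

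The IDs carry a chromosome arm. On 2L, 2R, 3L and 3R, 2.36% to 3.05% of probe sets were higher in anterior midgut and 11.7% to 13.6% were lower. On X, 56 of 1403 were higher (3.99%) and 129 lower (9.19%). Among the 1938 IDs with UNKN in place of an arm, 118 were higher (6.09%) and 99 lower (5.11%). By these counts X had a smaller share of lower calls than each of the 4 autosomal arms, without a test of that difference. Counting only higher calls above background on all 3 anterior midgut arrays, X had 29 (2.07%), next to 2.09% on 3L and 1.48% to 1.85% on the other autosomal arms. The UNKN probe sets were dimmer, with 17.6% above background on all 3 hindgut arrays against 37.8% on X and 38.6% to 42.2% on the other arms. Of their 118 higher calls, 53 were above background on all 3 anterior midgut arrays, and none of the 53 higher calls of 10-fold or more was a UNKN probe set.

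Control probe sets differed between the sections. The 3' minus 5' level of the mosquito actin and Gapdh controls was 1.07, 0.69 and 0.93 log2 units on anterior midgut arrays 1 to 3 and 0.21, 0.26 and -0.22 on the hindgut arrays. The means were 0.90 ± 0.19 and 0.08 ± 0.26 (SD, n = 3), and the groups did not overlap (exact permutation p = 0.1, n = 3 per group, the smallest p possible). Caeca stood at 0.83 ± 0.21, posterior midgut at 0.96 ± 0.26 and whole larvae at 0.93 ± 0.15. Of the 5 groups it was thus hindgut that stood apart, and anterior midgut was like the rest. The added bioC spike minus the cre spike was -4.68, -4.49 and -2.93 in anterior midgut and -3.34, -3.37 and -3.21 in hindgut, and these overlapped (exact permutation p = 0.4, n = 3 per group). From array 1 to array 3 it also rose in caeca (-4.65 to -3.26), posterior midgut (-4.31 to -2.82) and whole larvae (-4.65 to -3.01). Hindgut did not share this rise with the array number. Whether it marks a shared processing of same-numbered arrays was not tested. CDS and UTR probe sets of 1 ID stem were set side by side beside this difference, although the meaning of these ID fields is not given in the labels or files.

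Of 671 stems with both fields, 17 of 675 CDS probe sets were higher in anterior midgut and 194 lower (2.52% and 28.7%). Of 674 UTR probe sets, 16 were higher and 149 lower (2.37% and 22.1%), with 27 higher without anterior midgut array 2. The median difference was -0.36 log2 units for the first CDS and -0.35 for the first UTR probe set of a stem, and the median of CDS minus UTR within a stem was 0.02. With the first of each taken, 12 stems had both fields called higher, 112 had both called lower and 1 had opposite calls. Stems that carry both fields had a higher share of lower calls than the 11.9% of all tested probe sets, in both fields. The stems were not matched to all probe sets by level, however. Of all 790 UTR probe sets, 64.3% were above the number-ID background on all 3 hindgut arrays, beside 37.7% of all tested. The share of lower calls was 2.40% at outside levels of 4 to 5 and 37.5% at 7 to 8. Where 2 or more probe sets of 1 arm and number were called, which was so for 250 numbers, all were called the same way in 245. The part of the 3' minus 5' control difference in single calls was not tested.

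**Figure D5:**
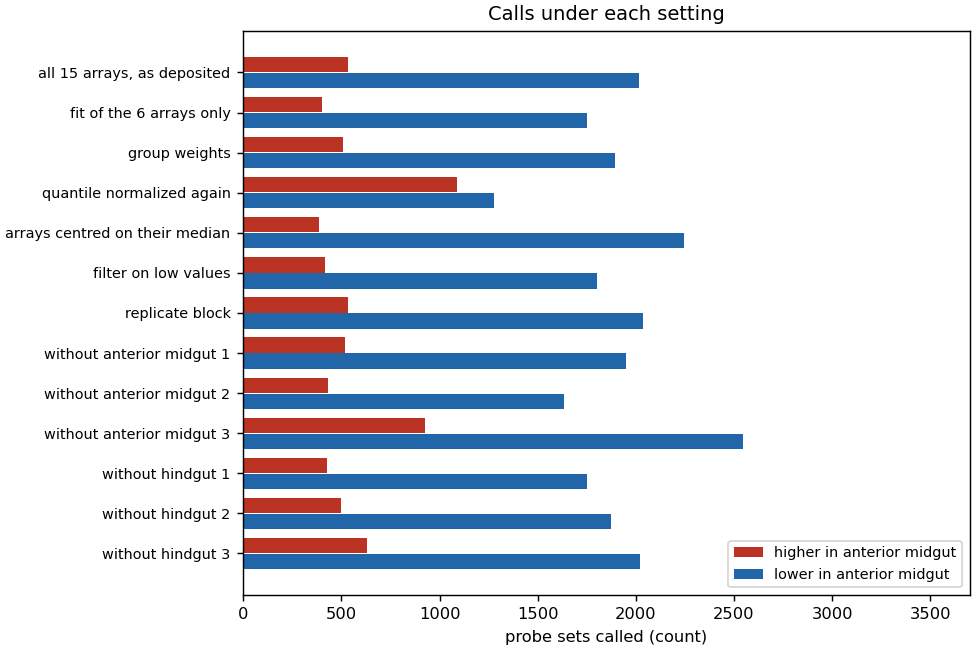
Number of probe sets called higher (red) and lower (blue) in anterior midgut than in hindgut under each setting of the fit or normalization and without each of the 6 arrays. Lower calls outnumber higher ones in every bar pair, from 1088 higher and 1280 lower after quantile normalization to 384 and 2244 after centring on medians.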

How the data were processed

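Per the labels' protocols, cRNA carrying biotin was made from total RNA with Affymetrix one-cycle reagents. The authors deposited 1 log2 value per probe set and array, and the submitters' processing notes name RMA. Its version and settings are not given, and the scale is inferred from the values, which run from 3.29 to 14.4. RMA compresses dim signals, so that folds with a dim side near background tend to be understated. Of the IDs that start with Ag or with a sequence accession, 0 matched the RefSeq gene table for this species.

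The model held 1 mean for each of the 5 groups over all 15 arrays and was fitted with limma 3.58.1 (R 4.3.3, lmFit and eBayes), with 1 spread per probe set. The named probe sets are the 2 largest changes in each direction among calls whose groups do not overlap. A lower bound sets the dim group at the higher of its value and the array's background. The labels call the 3 arrays biological repeats. Deviations of same-numbered arrays correlated at -0.09, -0.13 and -0.28, so the numbers were not taken as pairs. The bioC minus cre level nonetheless rose with the number in every group but hindgut. On simulated data over 16884 probe sets, 96% of those raised by 2 and 90% of those lowered by 2 on the log2 scale were called. For changes of 1.5 it was 84% and 90%. The simulated noise was independent and equal in all groups. It held neither the wider spread of anterior midgut nor the narrow range of its array 2, so these rates need not hold for the real arrays. The comparison and tests were chosen with earlier results of these data known. The number of arrays limits the precision.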

Additional observations from a re-analysis of the deposited data

Results flagged for a closer look

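Some probe sets outside the tested IDs differed between anterior midgut and hindgut. When all IDs entered the fit, 17 of the 937 whose ID is a sequence accession were called higher in anterior midgut (1.81%) and 3 lower. Of the 290 whose ID starts with a number, 6 were called higher (2.07%). Of the 4506 with Pf IDs, 8 were called higher (0.178%). The accession and number classes thus lay above the Pf share of higher calls, but below the 3.07% of the Ag IDs and the 2.43% of all 22761 IDs in the same fit. Lower calls numbered 0 among the number IDs and 0 among the Pf IDs, and made up 0.320% of the accession IDs. They made up 11.7% of the Ag IDs and 8.66% of all, so that the other classes did not share the Ag excess of lower calls. Of the 144 IDs of the maker's controls, 4 were called higher (2.78%). The number-ID class also set the background, which lay higher on anterior midgut arrays 1 and 2 than on any hindgut array.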

How the results depend on the processing

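Quantile normalization changed the balance of calls most, to 1088 higher and 1280 lower probe sets, of which 515 and 1258 were among those reported. It gave 35 higher and 110 lower CDS and 40 higher UTR probe sets of shared stems, and a caeca minus whole larvae median of -0.14 over the lower probe sets. Centring arrays on their median, which removes the shift of 0.10 over all probe sets, gave 384 higher and 2244 lower, and caeca medians of 0.49 and 0.0134 over higher and lower ones. A filter on low values, which leaves 6968 probe sets, gave 418 and 1803 calls, caeca medians of 0.46 and 0.0142, and 599 probe sets above background in hindgut only. Against the Pf background, 92 were above in anterior midgut only and 48 in hindgut only. A 4-fold threshold left 134 and 753 calls, and the design text's t-test with Benjamini-Hochberg adjustment 198 and 1072. Asking, after the data were seen, for signal above background on all 3 arrays of the higher section left 321 higher calls.

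Leaving out 1 of the 6 arrays at a time gave 426 to 926 higher and 1635 to 2544 lower calls. It gave 36 to 138 probe sets above background in anterior midgut only and 988 to 2291 in hindgut only. UTR probe sets of shared stems called higher numbered 14 to 27. Over the higher probe sets, the median of posterior midgut minus whole larvae ranged from 0.21 to 0.62 and that of caeca minus whole larvae from 0.0915 to 0.60. A replicate block gave 533 higher and 2038 lower calls and moved no other result past its limit. All 4 named probe sets kept their direction and call in all 13 alternatives run. What caused these shifts was not tested. The filter also left fewer probe sets, and the leaving out of an array fewer arrays, and the part of these in the shifts was not tested either.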

Other observations

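Calls were compared between ID numbers at set distances on 1 arm. Of 473 numbers called higher in anterior midgut that have a next number, 34 (7.19%) had the next number called higher too. At a distance of 100 numbers it was 14 of 453 (3.09%), and 3.38% of all 14906 numbers were called higher. For lower calls the shares were 23.0% at a distance of 1, 20.9% at 2, 19.1% at 5, 20.2% at 20 and 17.8% at 100, beside 11.8% overall. Lower calls thus stood above the overall share at distant numbers too, and adjacent numbers added little to that. No source used here says how the numbers were given, and no test was made.

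By the suffix of the ID, probe sets ending in _a_at had 86 higher and 662 lower calls among 3327 (2.58% and 19.9%), and those with no letter before _at had 403 and 1128 among 12171 (3.31% and 9.27%). Of these classes, 57.3% and 31.4% were above the number-ID background on all 3 hindgut arrays.

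Within the called probe sets, values on the 3 anterior midgut arrays spanned over 2 log2 units for 35 higher and 173 lower calls. On the hindgut arrays they did so for 4 and 18.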
